A study of Rattus norvegicus with 24 samples.

Results

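Melanin-concentrating hormone (MCH) and the orexins are hypothalamic neuropeptides, and the genes described here are their 2 precursors and 3 receptors, Pmch, Hcrt, Mchr1, Hcrtr1 and Hcrtr2. They were chosen by name as the peptide and receptor genes of the MCH and orexin (hypocretin) systems, and they make up 5 of the 23950 gene rows measured. The authors had already taken Pmch and Hcrt forward as hits of this sequencing, and then followed the hypocretin system. The share of the 5 genes called below is therefore not independent of these data. RNA-Seq of the nucleus accumbens (NAc) of Sprague Dawley rat pups at postnatal day 14 (P14) gave 24 libraries. There were 4 pups in each of 6 groups, taken from separate litters, in 2 generations (F1 and F2) of 3 exposures. Pups were male or female by random choice, which pup was which is not stated, and the NAc was taken with a brain matrix. The question put to the data is how perinatal oxycodone (oxy) exposure of the first generation, and descent from it, relate to the levels of these genes.

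In the in utero oxy (IUO) group, F0 dams received oxy by gavage at 10 mg/kg/day for 5 days, then 0.5 mg/kg/day more each day for 10 days up to 15 mg/kg/day. They were then mated and dosed through gestation until weaning, and F1 IUO pups are their offspring. Dams of the postnatal oxy (PNO) group received 15 mg/kg/day only after parturition, until weaning. Saline (SAL) dams were the controls. F2 pups of each group were born to F1 females that received no further oxy and were bred with males naive to the drug.

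MCH and the orexins are made by separate but intermingled neurons of the lateral hypothalamus, whose axons reach much of the brain, the NAc included. The orexins promote wakefulness, arousal and reward seeking, while MCH is linked to sleep, feeding and energy balance. Cell bodies that make these peptides are not a regular part of the NAc, whereas the MCH receptor is abundant in its medium spiny neurons.

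Levels are FPKM, a density of fragments normalised to transcript length and to the fragments mapped, which allows genes to be compared. Library sums of FPKM ran from 535866 to 766781, and 4782 to 7532 gene rows per library were listed at 0. The highest counts at 0 were in IUO libraries, at 7532 in F2 IUO replicate 4 and 7176 in F1 IUO replicate 1. Next were F1 IUO replicate 4 (6941), F2 IUO replicate 2 (6892) and F2 IUO replicate 1 (6076). The other IUO libraries had 4848 to 5685 rows at 0, and no SAL or PNO library had more than 5935. Whether these counts bear on the low values of Hcrtr2 or Pmch was not tested. With the number of reads unknown, counting error cannot be stated, and a gene at 0 is described as listed at 0. No 2 libraries held identical values.

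The presence of striatal tissue was read from 10 striatal genes, among them the dopamine receptors Drd1 and Drd2 and the signalling protein Ppp1r1b. These genes do not tell the NAc from the rest of the striatum. All 10 were above 0 in all 24 libraries, and Ppp1r1b was the most abundant in each. Bcl11b was uneven, from 0.05 FPKM in F2 PNO replicate 1 to 28.45 in F1 PNO replicate 1. Their summed FPKM ranged from 411.24 in F2 IUO replicate 1 to 1333.24 in F1 SAL replicate 3, with a median of 833.4.

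Pmch (ENSRNOG00000004632) encodes the precursor of MCH. Pmch FPKM was 0.34, 0.52, 0.28 and 0.18 in the 4 F1 SAL libraries and 0.23, 0.52, 0.72 and 0 in F1 PNO, in the order of replicates 1 to 4. In F1 IUO, Pmch FPKM was 0.09, 25.78, 4.59 and 22.64. Replicates 2, 3 and 4 of F1 IUO were above every other F1 library, and replicate 1 was below every F1 SAL library, so the groups overlapped. For the F2 pups, Pmch FPKM was 0.37, 0, 0.88 and 0.67 in SAL and 0.59, 2.5, 16.12 and 1.22 in PNO. The F2 IUO libraries had Pmch at 0.47, 27.88, 11.53 and 0 FPKM. In F2 PNO, 3 libraries were above all F2 SAL libraries, F2 IUO held both very high and very low libraries, and each pair of F2 groups overlapped. Over the 24 libraries the median Pmch FPKM was 0.555, 8 libraries reached 1 FPKM, and 3 were listed at 0.

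Ordered by mean FPKM, Pmch ran from F1 IUO to F2 IUO, F2 PNO, F2 SAL, F1 PNO and F1 SAL. Each pair of neighbours in this order overlapped. In the exact permutation tests of log2(FPKM + 0.1) given below, 4 against 4 libraries allow 70 assignments, and the smallest exact p is 0.0286.

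Hcrt (ENSRNOG00000018892) encodes prepro-orexin, the common precursor of orexin A and orexin B. Hcrt FPKM was 2.02, 0.26, 1.85 and 1.01 in F1 SAL and 0.38, 1.31, 2.58 and 0.61 in F1 PNO. It was 0.87, 41.23, 9.28 and 41.3 in F1 IUO, and the same 3 replicates that were high in Pmch were above every other F1 library in Hcrt. Hcrt FPKM in F2 SAL was 0.95, 2.54, 0.92 and 1.31, and in F2 PNO it was 1.87, 2.71, 3.14 and 0.92. In F2 IUO it was 9.15, 16.07, 8.61 and 0.45. Replicates 1, 2 and 3 of F2 IUO were above every F2 SAL and F2 PNO library, and replicate 4 was below them all.

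Mean Hcrt FPKM (± SD, n = 4) was 1.29 ± 0.814 in F1 SAL, 1.22 ± 0.989 in F1 PNO and 23.2 ± 21.2 in F1 IUO. In F2 it was 1.43 ± 0.761 in SAL, 2.16 ± 0.981 in PNO and 8.57 ± 6.39 in IUO. The SD was largest in the IUO groups. From high to low the order was F1 IUO, F2 IUO, F2 PNO, F2 SAL, F1 SAL and F1 PNO, and neighbours overlapped.

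**Figure D1:**
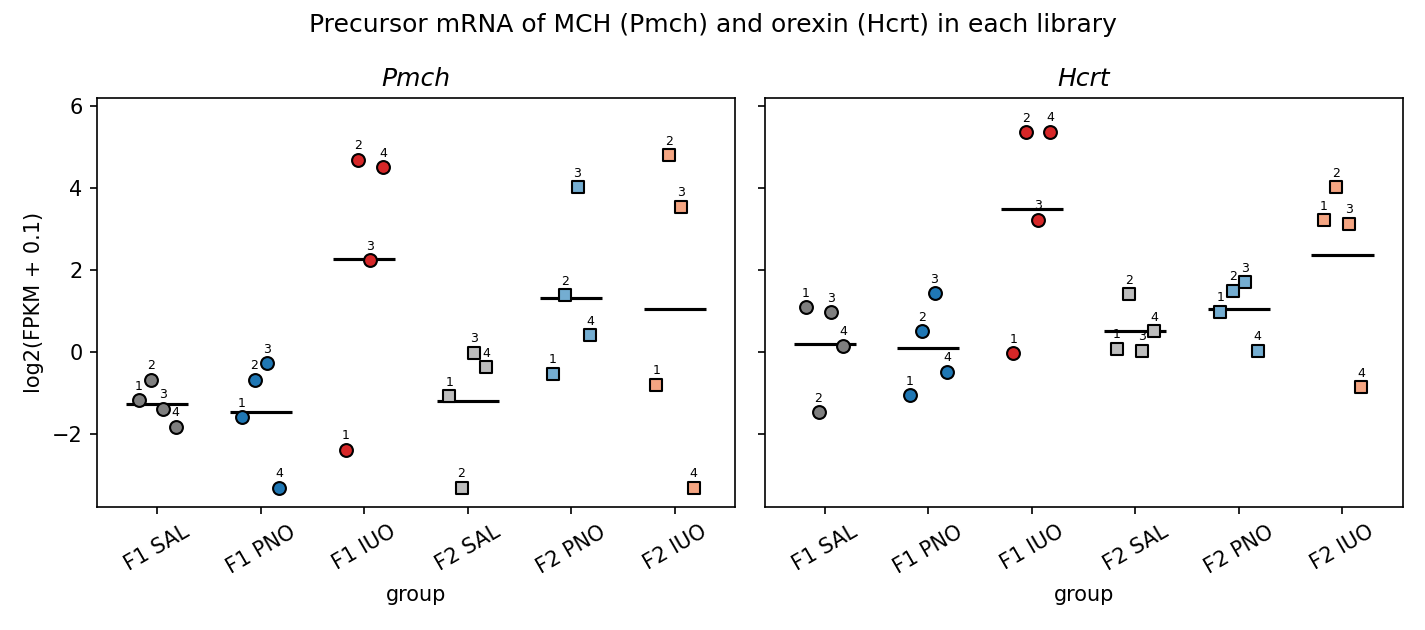
Pmch and Hcrt in each of the 24 libraries as log2(FPKM + 0.1), by group, with the replicate number at each point and a bar at the mean log2 value of the group (n = 4). The high Pmch values lie in F1 IUO, F2 IUO and F2 PNO, the high Hcrt values in F1 IUO and F2 IUO, and each IUO group also holds a library at the SAL level or below it.

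Mchr1 (ENSRNOG00000018895) encodes the MCH receptor of rodents, a Gi- and Gq-coupled receptor found on neuronal primary cilia. Mchr1 FPKM was 14.82, 15.97, 18.95 and 21.57 in F1 SAL, 12.9, 13.92, 15.47 and 16.72 in F1 PNO, and 14.64, 15.21, 15.6 and 17.52 in F1 IUO. In F2, Mchr1 FPKM was 20.46, 16.57, 16.65 and 15.8 in SAL, 17.8, 14.81, 16.31 and 12.41 in PNO, and 16.31, 14.75, 15.66 and 17.38 in IUO. All 6 groups overlapped, and the gene was steady, with a coefficient of variation of 13.0% over 24 libraries, against 180% for Pmch and 181% for Hcrt. Group means of Mchr1 (± SD, n = 4) lay between 14.8 ± 1.68 FPKM in F1 PNO and 17.8 ± 3.04 in F1 SAL. The order was F1 SAL, F2 SAL, F2 IUO, F1 IUO, F2 PNO and F1 PNO.

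Hcrtr1 (ENSRNOG00000013838) encodes orexin receptor 1, which prefers orexin A. Hcrtr1 FPKM was 1.13, 2.1, 4.25 and 3.37 in F1 SAL, 1.57, 1.95, 0.64 and 2.25 in F1 PNO, and 3.23, 2.07, 1.54 and 2.57 in F1 IUO. In F2, Hcrtr1 FPKM was 1.82, 2.2, 3.4 and 2.68 in SAL, 1.79, 1.59, 0.96 and 1.59 in PNO, and 3.32, 3.2, 3.46 and 2.63 in IUO. Each F2 PNO library was below every F2 SAL and F2 IUO library, whereas the F1 groups overlapped. The mean (± SD, n = 4) was highest in F2 IUO at 3.15 ± 0.364 FPKM and lowest in F2 PNO at 1.48 ± 0.361. From high to low the groups were F2 IUO, F1 SAL, F2 SAL, F1 IUO, F1 PNO and F2 PNO, and neighbours overlapped.

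Hcrtr2 (ENSRNOG00000011251) encodes orexin receptor 2, which binds both orexins. Hcrtr2 FPKM was 1.01, 0.86, 1.01 and 0.43 in F1 SAL, 0.92, 1.45, 0.84 and 0.77 in F1 PNO, and 0.2, 0.37, 0.52 and 0.59 in F1 IUO. In F2, Hcrtr2 FPKM was 0.91, 0.49, 0.87 and 1.13 in SAL, 0.42, 0.77, 1.21 and 0.4 in PNO, and 0.41, 0.25, 1.07 and 0.9 in IUO. Every F1 IUO library was below every F1 PNO library, and the other pairs of groups of a generation overlapped. Mean Hcrtr2 (± SD, n = 4) ran from 0.995 ± 0.309 FPKM in F1 PNO to 0.42 ± 0.173 in F1 IUO. The order was F1 PNO, F2 SAL, F1 SAL, F2 PNO, F2 IUO and F1 IUO, again with overlap between neighbours.

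**Figure D2:**
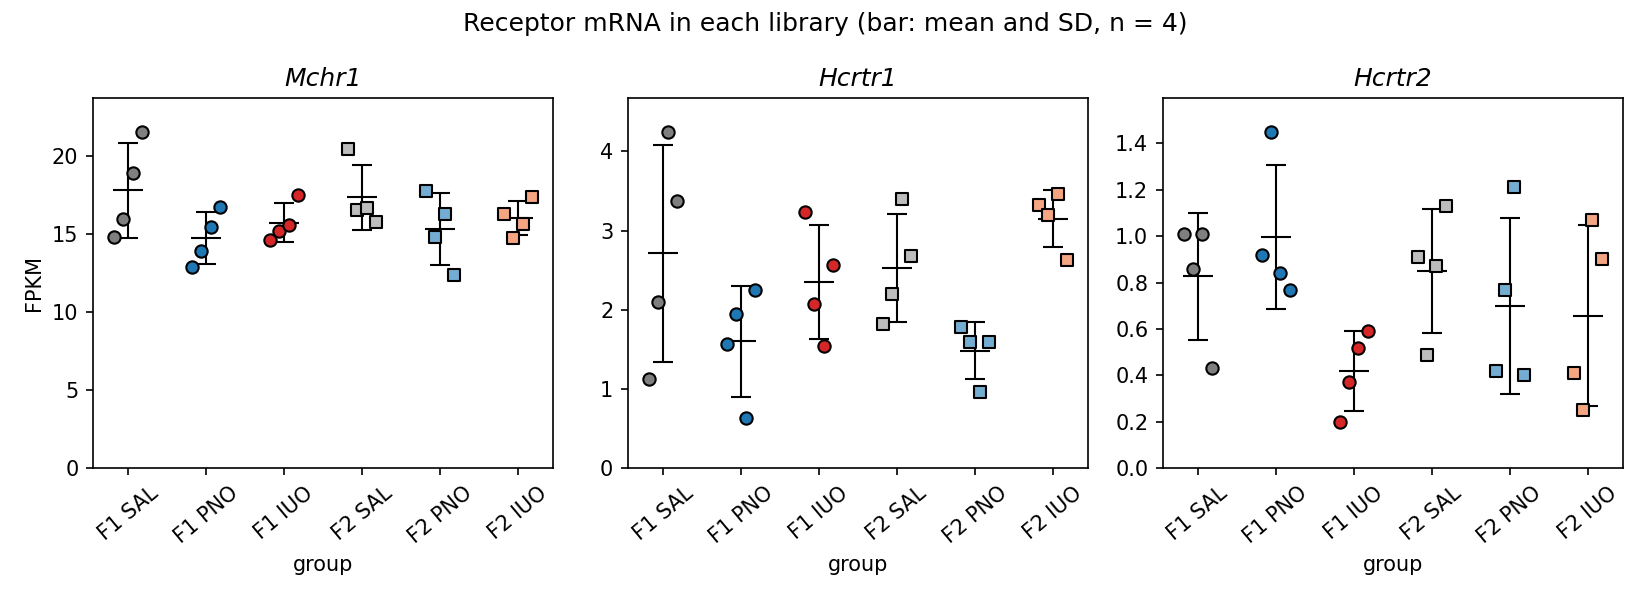
FPKM of the receptor genes Mchr1, Hcrtr1 and Hcrtr2 in each library by group, on axes from 0, with the group mean and SD (n = 4). Hcrtr1 in F2 PNO lies below all libraries of F2 SAL and F2 IUO, Hcrtr2 in F1 IUO lies below all libraries of F1 PNO, and the Mchr1 groups overlap.

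Within libraries, Mchr1 was the most abundant of the receptors in 24 of 24. Its median of 15.9 FPKM was higher than that of 80.4% of gene rows in the median library, against 51.9% for Hcrtr1 (median 2.15 FPKM) and 40.9% for Hcrtr2 (median 0.805 FPKM). Hcrtr1 was above Hcrtr2 in 22 of 24 libraries, the exceptions being replicate 3 of F1 PNO and replicate 3 of F2 PNO. Hcrt FPKM was above Pmch FPKM in 19 of 24 libraries. In 3 libraries Pmch was above Mchr1, and in 3 Hcrt was.

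Differences between groups were tested with limma on log2(FPKM + 0.1), over all genes that reached 0.1 FPKM in 4 of the 8 libraries. A gene was called by the adjusted rule at a Benjamini-Hochberg adjusted p under 0.05, and by the fold rule when mean FPKM differed 2-fold or more and the unadjusted p was under 0.05. All 5 genes entered each of the 6 comparisons. Comparisons of a generation share libraries, so that they are not independent, and their values are given side by side.

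In F1 IUO against F1 SAL, both peptide genes were higher in IUO and passed the fold rule, and no receptor gene did. Mean Hcrt FPKM was 18.0 times that of SAL, a log2 fold change of 3.30 (standard error 1.12, 95% interval 0.78 to 5.82, limma p = 0.0156, adjusted p = 0.999, exact permutation p = 0.114), with 3 of 4 IUO libraries above all SAL libraries. Mean Pmch FPKM was 13.3 in IUO and 0.33 in SAL, a log2 fold change of 3.54 (standard error 1.34, 95% interval 0.54 to 6.53, limma p = 0.0253, adjusted p = 0.999, exact permutation p = 0.143), again with 3 of 4 above all SAL libraries. In bulk tissue, a different number of cells of a type and a different amount of RNA per cell cannot be told apart. By the fold rule 2 of 5 genes were called, where the rule called 1.61% of the 17380 genes tested. The adjusted rule called 0 of 5 (2 of 5 at an unadjusted limma p under 0.05) and 0% of all genes (679 genes at an unadjusted p under 0.05). None of the 5 genes separated the groups without overlap, as 2.54% of all genes did, where chance gives 2.86% for 4 against 4. Hcrtr2 had a mean of 0.42 FPKM in IUO and 0.828 in SAL and a log2 fold change of -0.84 (95% interval -1.72 to 0.04, limma p = 0.0581, exact permutation p = 0.0857). The log2 fold change was -0.17 for Mchr1 and -0.09 for Hcrtr1 (exact permutation p = 0.257 and 0.886). Hcrtr1 was at 0.09, 0.17 and 0.06 without F1 IUO replicate 3, F1 SAL replicate 3 and F1 SAL replicate 4.

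Pmch lost the call of F1 IUO against SAL, its unadjusted limma p rising over 0.05, without F1 IUO replicate 2 (log2 fold change 2.72), F1 IUO replicate 4 (2.79) or F1 SAL replicate 4 (3.35). Without F1 IUO replicate 1, the library low in both peptides, the log2 fold change was 5.09 for Pmch and 4.48 for Hcrt, with adjusted p = 0.133 and 0.522 and 3 of 3 IUO libraries above all SAL libraries. Over all alternatives the adjusted p ran from 0.133 to 1.0 for Pmch and from 0.522 to 1.0 for Hcrt. Hcrt kept the call with each library left out, its log2 fold change lying between 2.67 and 4.48. Hcrtr2 passed the fold rule without F1 IUO replicate 4 (-1.0), without F1 SAL replicate 4 (-1.09) and with the libraries rescaled to a common upper quartile (-0.95).

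In F1 PNO against F1 SAL, none of the 5 genes was called. The log2 fold change was -0.20 for Pmch, -0.09 for Hcrt, -0.26 for Mchr1, -0.69 for Hcrtr1 and 0.26 for Hcrtr2, with exact permutation p from 0.143 (Mchr1) to 0.914 (Hcrt). Mean Pmch FPKM was higher in PNO, at 0.368 against 0.33 in SAL, so the scales differed in sign. The Pmch log2 fold change was 0.42 without F1 PNO replicate 4, listed at 0. Hcrt was 0.29 without F1 PNO replicate 1, 0.11 without F1 PNO replicate 4, 0.21 without F1 SAL replicate 1 and 0.17 without F1 SAL replicate 3. Hcrtr1 passed the fold rule without F1 SAL replicate 1, at -1.04. With 1 library left out, Hcrtr2 ran from 0.01 to 0.37. By the fold rule 0 of 5 genes were called against 1.86% of 17494, and limma's adjusted rule called 0 of 5 (0 at an unadjusted p under 0.05) against 0% (2438 genes unadjusted). Non-overlapping groups were found for 0 of 5 genes and for 8.27% of all genes.

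F1 IUO against F1 PNO gave calls for both peptides and for 1 receptor. Hcrt was higher in IUO by 3.39 on the log2 scale (standard error 1.12, 95% interval 0.88 to 5.90, limma p = 0.0133, adjusted p = 0.194, exact permutation p = 0.0857) and Pmch by 3.73 (standard error 1.43, 95% interval 0.51 to 6.95, limma p = 0.0274, adjusted p = 0.243, exact permutation p = 0.114), each above all PNO libraries in 3 of 4. Hcrtr2 was lower in IUO in 4 of 4 libraries, at 0.422 times the mean FPKM of PNO and a log2 fold change of -1.11 (standard error 0.356, 95% interval -1.91 to -0.31, limma p = 0.0120, adjusted p = 0.189, exact permutation p = 0.0286). The log2 fold change was 0.60 for Hcrtr1 and 0.10 for Mchr1 (exact permutation p = 0.229 and 0.371). The fold rule thus called 3 of 5 genes against 2.95% of 17306, and groups were without overlap for 1 of 5 against 10.5%. Limma's adjusted rule called 0 of 5 genes against 0.133% of all genes, a background of 23 genes. That background fell to between 2 and 6 genes whichever of the 8 libraries was left out. At an unadjusted limma p under 0.05 there were 3 of 5 genes, against 2857 of the 17306 genes tested.

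The Pmch call between F1 IUO and F1 PNO was lost in the same way without F1 IUO replicate 2 (2.92), F1 IUO replicate 3 (3.74), F1 IUO replicate 4 (2.98), F1 PNO replicate 1 (3.69) or F1 PNO replicate 4 (3.12). The calls of Hcrt and Hcrtr2 held with each library left out, at log2 fold changes of 2.76 to 4.57 and -1.26 to -0.86. Mchr1 was at -0.02 under upper-quartile rescaling, which moved the median of all genes in this comparison by -0.12 on the log2 scale. Relative to that median, Mchr1 was at 0.06 with and without rescaling.

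In the second generation, F2 IUO against F2 SAL gave no call, although the peptide means were far apart. Mean Hcrt FPKM was 5.99 times higher in IUO, or 1.87 on the log2 scale of the fit (standard error 0.922, 95% interval -0.20 to 3.94, limma p = 0.0710, adjusted p = 0.604, exact permutation p = 0.143) and 3 of 4 IUO libraries above all SAL libraries. For Pmch, 2 of 4 IUO libraries were above all SAL libraries, and the log2 fold change was 2.26 (standard error 1.63, limma p = 0.197, adjusted p = 0.690, exact permutation p = 0.343). Mchr1 was at -0.11, Hcrtr1 at 0.34 and Hcrtr2 at -0.44, with exact permutation p = 0.314, 0.229 and 0.371. Of the 5 genes, 0 passed the fold rule against 2.18% of 17097, the adjusted rule of limma 0 of 5 (0 unadjusted) against 0% (1452 genes unadjusted), and 0 of 5 were without overlap against 5.11%. Without F2 IUO replicate 4, low in both peptides, Hcrt was at 2.95 and Pmch at 3.72, with adjusted p = 0.166 and 0.578, both past the fold rule, and over all alternatives the adjusted p ran from 0.166 to 0.911 for Hcrt and from 0.578 to 0.911 for Pmch. Hcrt also passed with a pseudocount of 1 (1.58) and with a replicate block (1.87).

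F2 PNO against F2 SAL gave a call for Pmch alone. Pmch was higher in PNO, with 3 of 4 libraries above all SAL libraries and a log2 fold change of 2.52 (standard error 1.02, 95% interval 0.23 to 4.81, limma p = 0.0344, adjusted p = 0.439, exact permutation p = 0.0857). Hcrtr1 was lower in 4 of 4 PNO libraries, at 0.587 times the SAL mean and a log2 fold change of -0.73 (standard error 0.287, 95% interval -1.37 to -0.08, limma p = 0.0313, adjusted p = 0.433, exact permutation p = 0.0286), which is short of the 2-fold the rule asks. Hcrt was at 0.55, Mchr1 at -0.18 and Hcrtr2 at -0.32, with exact permutation p = 0.314, 0.286 and 0.429. Of the 5 genes, 1 passed the fold rule against 2.15% of 17367, and 1 of 5 was without overlap against 7.01%. Limma's adjusted rule called 0 of 5 genes against 0.00576%, which is 1 gene. At an unadjusted limma p under 0.05 there were 2 of 5 genes, against 1876 of the 17367 genes tested.

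The Pmch call between F2 PNO and F2 SAL was lost, with an unadjusted limma p over 0.05, without F2 PNO replicate 2 (2.50), F2 PNO replicate 3 (1.62), F2 SAL replicate 1 (2.56) or F2 SAL replicate 2 (1.81). It was also lost with a pseudocount of 1 (1.40) and when all 24 libraries entered 1 fit (2.52).

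F2 IUO against F2 PNO differed in Hcrtr1, which was higher in 4 of 4 IUO libraries, at 2.13 times the PNO mean. Its log2 fold change was 1.07 (standard error 0.276, 95% interval 0.44 to 1.69, limma p = 0.00359, adjusted p = 0.439, exact permutation p = 0.0286). Hcrt was at 1.32 (exact permutation p = 0.343), with 3 of 4 IUO libraries above all PNO libraries, and at 2.40, past the fold rule, without F2 IUO replicate 4. For Pmch the mean FPKM was 1.95 times higher in IUO while the log2 fold change was -0.26 (exact permutation p = 0.886), so the scales differed in sign. The Pmch log2 value turned positive without F2 IUO replicate 1 (0.36), F2 IUO replicate 4 (1.20) or F2 PNO replicate 3 (0.64), and with a pseudocount of 1 (0.33). Mchr1 was at 0.07 and Hcrtr2 at -0.13. Mchr1 was at -0.02 without F2 PNO replicate 4, and Hcrtr2 at 0.01, 0.19 and 0.15 without F2 IUO replicate 1, F2 IUO replicate 2 and F2 PNO replicate 3. The fold rule called 1 of 5 genes against 1.80% of 17090, limma's adjusted rule 0 of 5 (1 of 5 unadjusted) against 0% (1208 genes unadjusted), and 1 of 5 was without overlap against 4.74%. Hcrtr1 fell short of 2-fold without F2 PNO replicate 3 (0.88) and after upper-quartile rescaling (0.90). That rescaling moved the median of all genes by -0.16, and relative to the median Hcrtr1 was at 1.08 both ways.

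**Figure D3:**
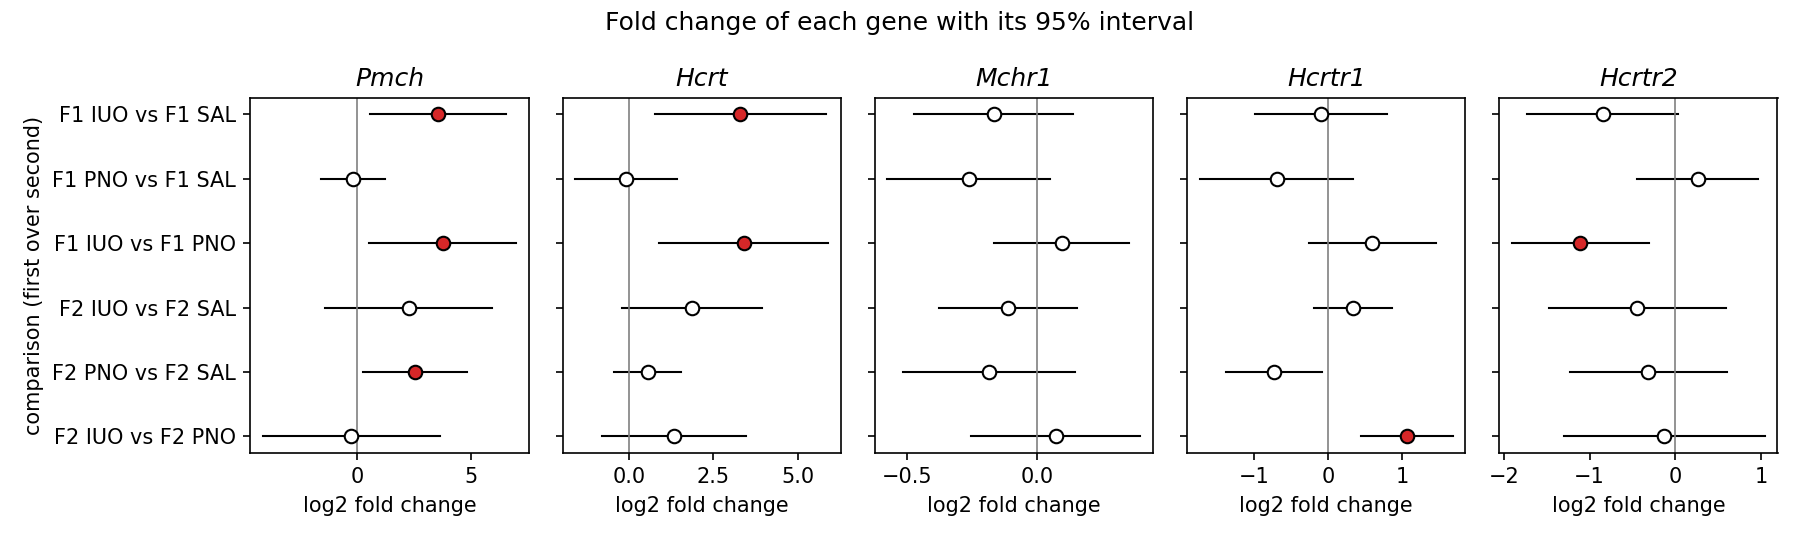
Log2 fold change, on the log2(FPKM + 0.1) scale, of each gene in the 6 comparisons, with the 95% interval from limma; each panel has its own x axis, and red marks genes called by the fold rule. The intervals of Pmch and Hcrt span several log2 units, those of Mchr1 are narrow and include 0, and the red points are Pmch in 3 comparisons, Hcrt in 2, Hcrtr1 in 1 and Hcrtr2 in 1.

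Whether a difference between exposures was itself different in F2 and F1 was tested as an interaction in limma. Of 15 such differences over the 5 genes, 0 had an unadjusted p under 0.05, where 5.15% of all genes did in the IUO and SAL pair, 4.06% in the PNO and SAL pair and 5.76% in the IUO and PNO pair. After adjustment limma called 0% of genes in each (949, 756 and 1060 genes unadjusted). The smallest unadjusted p was that of Pmch for PNO against SAL, where the F2 difference exceeded the F1 difference by 2.72 on the log2 scale (standard error 1.28, 95% interval -0.01 to 5.45, adjusted p = 1.0). Its unadjusted p was under 0.05 without F1 PNO replicate 2 (2.98), F1 PNO replicate 3 (3.11), F2 PNO replicate 1 (3.33), F2 PNO replicate 4 (3.02), F2 SAL replicate 3 (3.11) or F2 SAL replicate 4 (2.99). With a pseudocount of 1 this difference was 1.39, with an unadjusted limma p over 0.05. The IUO against PNO difference was -4.0 for Pmch and -2.07 for Hcrt (adjusted p = 0.918 and 0.937). Without F1 IUO replicate 1 these were -5.55 and -3.24, and without F2 IUO replicate 2 Pmch was at -5.25, each with an unadjusted p under 0.05. Hcrtr2 was at 0.98 (adjusted p = 0.920), and at 1.30, with an unadjusted p under 0.05, without F2 IUO replicate 2.

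The balance of the orexin receptors was taken as the ratio of Hcrtr1 to Hcrtr2 within a library. This ratio of FPKM + 0.1 was 11.1, 4.62, 2.65 and 3.87 in F1 IUO, 1.64, 1.32, 0.787 and 2.70 in F1 PNO and 1.11, 2.29, 3.92 and 6.55 in F1 SAL. In F2 it was 6.71, 9.43, 3.04 and 2.73 in IUO, 3.63, 1.94, 0.809 and 3.38 in PNO and 1.90, 3.90, 3.61 and 2.26 in SAL. The IUO libraries of F1 were mostly above those of F1 PNO, with overlap. The mean log2 ratio was 2.26 ± 0.876 (SD, n = 4) in F1 IUO and 0.55 ± 0.737 in F1 PNO, a difference of 1.71 with an exact permutation p = 0.0571, and of 0.87 with a pseudocount of 1. The exact p of the difference of 1.71 was the lowest of 12 ratio tests, and its adjusted p was 0.549. The ratio of Pmch to Hcrt was 0.350, 0.925, 5.01 and 1.29 in F2 PNO and 0.448, 0.0379, 0.961 and 0.546 in F2 SAL, with overlap. The mean log2 ratio was higher in F2 PNO by 1.97, with 2 of 4 libraries above all SAL libraries (exact permutation p = 0.229, adjusted p = 0.549). That difference was 0.96 without F2 SAL replicate 2, where Pmch was listed at 0, 1.29 without F2 PNO replicate 3 and 1.04 with a pseudocount of 1.

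Over the 24 libraries, log2(FPKM + 0.1) of Pmch and Hcrt moved together, with Pearson's r of 0.788 (permutation p = 1e-05, the smallest that 100000 permutations can give, adjusted p = 0.00015) and Spearman's rho of 0.688 (permutation p = 0.00027, adjusted p = 0.00405). Pearson's r was 0.919 within the 12 F1 libraries, 0.644 within the 12 F2 libraries (permutation p = 0.0240, adjusted p = 0.360) and 0.724 with each library centred on its group mean. Without the 2 libraries farthest from the median of Pmch, F1 IUO replicate 2 and F2 IUO replicate 2, r was 0.700. The family held 15 relations, and in the other 14 the adjusted permutation p was 0.322 or more. Outside this family, other genes had a higher rho with Pmch than Hcrt did, as given below. These included Hcrt with Hcrtr2 (r = -0.331, rho = -0.202, permutation p = 0.114 and 0.341) and Mchr1 with Hcrtr1 (r = 0.334, rho = 0.380, permutation p = 0.111 and 0.0675). Hcrt with Hcrtr2 turned to 0.0778 when centred on group means.

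**Figure D4:**
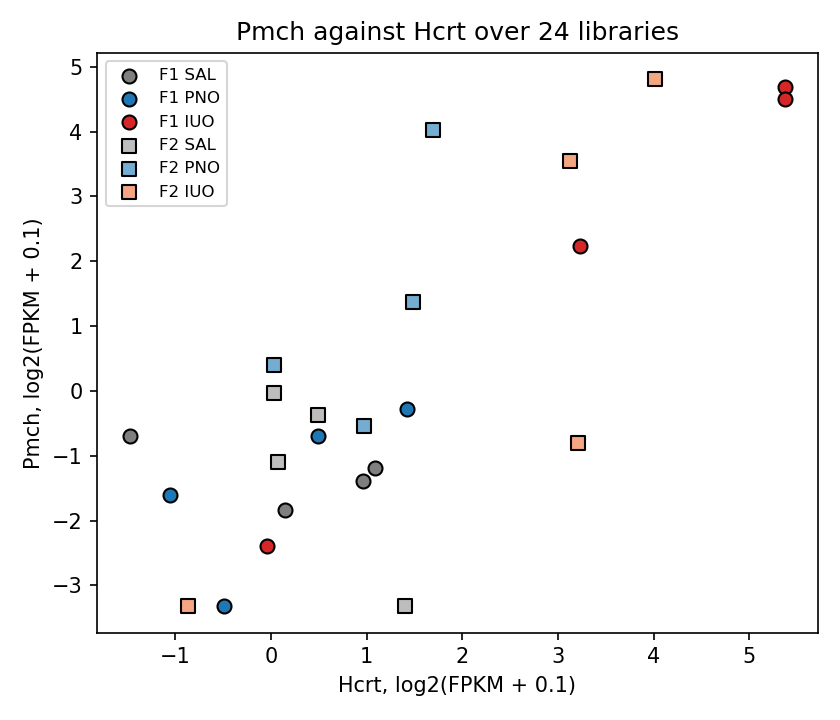
Pmch (y axis) against Hcrt (x axis) in the 24 libraries, both as log2(FPKM + 0.1), with circles for F1, squares for F2 and a colour for each exposure. The points at the upper right, high in both peptides, are IUO libraries of F1 and F2, and F2 PNO replicate 3 has high Pmch with Hcrt near the other F2 PNO libraries.

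Hypothalamic marker genes were read in the same libraries. Their list held 16 genes, among them the transcription factors Otp and Sim1 and the peptides Avp, Oxt and Trh, and between 8 and 16 of the 16 were above 0 in a library. The summed FPKM was 24.61, 25.95, 74.15 and 17.97 in F1 SAL, 9.62, 11.9, 20.94 and 19 in F1 PNO, and 105.98, 78.06, 59.71 and 117.32 in F1 IUO. In F2 the sum was 38.94, 18.12, 161.5 and 273.52 in SAL, 136.3, 15.18, 23.66 and 840.13 in PNO, and 21.71, 63.76, 263.76 and 31.42 in IUO. In F1 the IUO libraries overlapped SAL and lay above PNO, and in F2 the 3 groups overlapped. Avp, Oxt or Trh was the most abundant gene in 23 libraries, and in F2 PNO replicate 4 it was Pomc, at 818.03 FPKM. Avp, Oxt, Trh and Pomc were above 0 in all 24 libraries and Otp in 22, while Rax was listed at 0 in 22 and Nkx2-4 in 21.

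Over the 24 libraries, Pmch against the log2 sum gave r = 0.332 and rho = 0.419 (permutation p = 0.114 and 0.0430, adjusted p = 0.427 and 0.322), and Hcrt gave r = 0.207 and rho = 0.130 (permutation p = 0.332 and 0.544, adjusted p = 0.623 and 0.806). Within F1, r was 0.544 for Pmch and 0.646 for Hcrt (permutation p = 0.0705 and 0.0233, adjusted p = 0.224 and 0.175), and within F2 it was 0.175 and -0.187 (permutation p = 0.585 and 0.558). Without F2 PNO replicate 4, left out after seeing the data, r was 0.376 for Pmch and 0.336 for Hcrt (permutation p = 0.0757 and 0.117). In F1 IUO against SAL the fold rule called 2 of the 10 list genes tested, Oxt (log2 fold change 1.81) and Avp (2.0), both higher, and the list median was 0.35 against 0.01 for all genes. In F1 IUO against PNO it called 4 of 9, Otp (2.81), Trh (1.42), Oxt (3.77) and Avp (3.80, adjusted p = 0.0468, higher in 4 of 4), all higher, with a list median of 0.61 against 0.03. In F1 PNO against SAL it called 3 of 9, Otp (-2.42), Oxt (-1.95) and Avp (-1.81), all lower, with a median of -0.61 against -0.05. In F2 it called 0 of 11 for IUO against SAL, 0 of 10 for PNO against SAL, and 1 of 10 for IUO against PNO, Agrp (1.59). The F2 list medians were 0.07, -0.44 (8 of 10 lower in PNO) and 0.35 in that order, against -0.08, -0.08 and -0.01 for all genes. The part of hypothalamic tissue in the Pmch and Hcrt values was not tested.

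Thalamic genes (7, with Tcf7l2 the most abundant by mean) were all above 0 in each library. The summed FPKM was 135.29, 86.45, 32.75 and 24.32 in F1 SAL, 109.13, 264.67, 135 and 190.51 in F1 PNO, and 27.53, 33.58, 85.17 and 138.92 in F1 IUO. In F2 the thalamic sum was 37.88, 32.43, 172.39 and 128.68 in SAL, 71.46, 98.14, 184.85 and 35.24 in PNO, and 126.38, 81.23, 95.9 and 27.87 in IUO. The F1 PNO libraries were mostly the high ones in F1, with overlap. The fold rule called 6 of 7 thalamic genes higher in PNO than SAL in F1 (median 1.39 against -0.05 for all genes) and 5 of 7 lower in IUO than PNO in F1 (median -1.37 against 0.03), and 0 of 7 in the other 4 comparisons. Hcrtr2 against the thalamic sum gave r = 0.511 and rho = 0.508 (permutation p = 0.0107 and 0.0118, adjusted p = 0.322 and 0.236 over 30 relations added after seeing the data), with 0.695 within F1, 0.283 within F2 and 0.390 without the 2 farthest libraries. Of the same 30 relations, the cortical sum with Hcrtr2 gave r = -0.243 and rho = -0.494 (permutation p = 0.257 and 0.0157, adjusted p = 0.454 and 0.236). The choroid plexus sum with Hcrtr1 gave r = -0.418 and rho = -0.432 (permutation p = 0.0430 and 0.0370, adjusted p = 0.383 and 0.316), with r of -0.743 within F1 and 0.0575 within F2. The part of thalamic tissue in the Hcrtr2 values was not tested.

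Cortical genes (6, most abundant Slc17a7) summed to 261.9, 72.7, 10.33 and 330.92 FPKM in F1 SAL, 233.97, 156.04, 271.1 and 188.37 in F1 PNO, and 198.62, 222.55, 201.64 and 232.02 in F1 IUO. For F2 the cortical sum was 171.07, 229.26, 134.57 and 168.1 in SAL, 24.46, 188.61, 125.57 and 318.7 in PNO, and 314.6, 361.29, 183.12 and 288.65 in IUO. All 6 were above 0 in 23 libraries, with Emx1 at 0 in F1 SAL replicate 3, and 3 of 4 F2 IUO libraries were above all F2 SAL libraries. The fold rule called Fezf2, Emx1 and Neurod6 higher in F2 IUO than SAL, and 0 of 6 cortical genes in F1 PNO against SAL, F1 IUO against PNO, F2 PNO against SAL and F2 IUO against PNO. The cortical list median was 1.24, 1.33 and 0.07 in F1 for IUO against SAL, PNO against SAL and IUO against PNO. In F2 it was 1.16, -0.20 and 1.29 in that order. Of the 6 genes, 6, 6 and 4 were higher in the first-named group in F1, and 6, 2 and 6 in F2.

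Choroid plexus genes (8) summed to 5204.3, 9.05, 10.18 and 5.7 FPKM in F1 SAL, 255.03, 12.65, 3814.31 and 20.19 in F1 PNO, and 9.76, 27.22, 8159.36 and 995.42 in F1 IUO. In F2 they summed to 6.26, 16.67, 84.21 and 13.53 in SAL, 17.2, 13.03, 25.42 and 6812.45 in PNO, and 12257.1, 9.48, 12.72 and 5.58 in IUO. Ttr, a thyroid hormone carrier made by this epithelium, was the most abundant gene by mean, and single libraries of most groups were very high. The fold rule called 0 of 8 in each comparison. The list median was 0.57, 0.10 and 0.72 in F1 for IUO against SAL, PNO against SAL and IUO against PNO. In F2 it was 0.76, 0.94 and -0.46 in that order. Of the 8 genes, 7, 5 and 6 were higher in the first-named group in F1, and 7, 7 and 2 in F2. Over the 24 libraries the choroid plexus sum with Hcrt gave r = 0.280 and rho = 0.373 (permutation p = 0.185 and 0.0723, adjusted p = 0.428 and 0.366 over the 30 added relations), and rho was 0.608 within F1 and 0.0736 within F2. With Pmch it gave r = 0.134 and rho = 0.309 (permutation p = 0.531 and 0.140, adjusted p = 0.638 and 0.409).

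Blood genes (5, with Hba-a2 on 2 rows and the most abundant) summed to 12.93, 19.12, 19.03 and 88.52 FPKM in F1 SAL, 35.74, 26.98, 470.96 and 34.34 in F1 PNO, and 30.71, 410.48, 119.19 and 27.96 in F1 IUO. In F2 the blood sum was 36.14, 20.19, 13.19 and 16.77 in SAL, 30.57, 195.1, 41.13 and 47.33 in PNO, and 92.58, 27.28, 87.15 and 120.57 in IUO. F1 IUO replicate 2, high in Pmch and Hcrt, was also high in blood genes, and F1 IUO replicate 4, as high in both peptides, was not. The fold rule called 1 Hba-a2 row and Hbb higher in F1 IUO than SAL, and both Hba-a2 rows higher in F2 IUO and in F2 PNO than in F2 SAL. Among the rest of the 30 relations, the 6 largest r within a generation were as follows. In F1, Hcrtr1 was at 0.679 with the striatal sum and -0.575 with the thalamic sum, and Hcrtr2 at -0.611 with the hypothalamus sum and -0.549 with the striatal sum. In F2, Hcrt was at -0.659 with the striatal sum and Pmch at 0.572 with the thalamic sum (0.516 over 24 libraries centred on group means). In the other generation these 6 lay between -0.0479 and 0.101, apart from Hcrtr1 with the striatal sum (-0.411), and over all 24 libraries each had an adjusted permutation p of 0.366 or more. The parts of cortex, choroid plexus and blood in the values of the 5 genes were not tested.

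Genes that accompany the peptides in their neurons were taken as a list of 8. Nptx2, a neuronal pentraxin, had 36.02, 17.69, 12.22 and 23.81 FPKM in F1 SAL, 31.53, 36.17, 42.53 and 30.11 in F1 PNO, and 19.19, 19.14, 24.87 and 40.69 in F1 IUO. Pdyn, the dynorphin precursor, which striatal neurons also make, had 20.43, 40.48, 60.99 and 55.53 FPKM in F1 SAL, 25.54, 22.31, 19.12 and 30.64 in F1 PNO, and 45.17, 60.06, 38.27 and 42.96 in F1 IUO. All Pdyn values of F1 IUO were above those of F1 PNO, by a log2 fold change of 0.93 (standard error 0.176, adjusted p = 0.0853), under 2-fold. In F1 PNO against SAL the log2 fold change was 0.74 for Nptx2 and -0.77 for Pdyn (adjusted p = 0.307 and 0.324), and neither reached 2-fold. In F1 IUO against SAL it was 0.25 for Nptx2 and 0.17 for Pdyn (adjusted p = 0.999 for both), and in F2 IUO against SAL 0.22 and -0.14 (adjusted p = 0.796 and 0.891). Mean Nptx2 FPKM was lower in F1 IUO (26.0) than in F1 PNO (35.1), unlike Pdyn. In F2 the mean FPKM in SAL, PNO and IUO was 24.7, 21.5 and 29.0 for Nptx2 and 39.3, 42.1 and 36.3 for Pdyn. Between F1 IUO and F1 SAL the median log2 fold change of the 10 striatal genes was 0.04, between F1 PNO and F1 SAL -0.49 (10 of 10 lower in PNO) and between F1 IUO and F1 PNO 0.52 (9 of 10 higher in IUO), beside all-gene medians of 0.01, -0.05 and 0.03. In F2 the striatal medians were -0.42 (9 of 10 lower), -0.12 (8 of 10 lower) and -0.39 (9 of 10 lower) in the same order, beside -0.08, -0.08 and -0.01 for all genes, and no striatal gene passed the fold rule in any comparison. The part of striatal tissue in the Pdyn values was not tested.

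Of 7 companion genes tested, the fold rule called Lhx9 (log2 fold change 2.89) and Slc17a6 (1.74) higher in F1 PNO than SAL. It called the same genes lower in F1 IUO than PNO (-2.66 and -1.84), and 0 of 7 in the other 4 comparisons. Lhx9 encodes a transcription factor of orexin neurons and Slc17a6 the glutamate transporter VGLUT2, and both are expressed in the thalamus. Qrfp, a peptide of the lateral hypothalamus, did not exceed 0.2 FPKM in any library. The list median was -0.03, -0.28, 0.15, -0.03, 0.11 and -0.11 for F1 IUO against SAL, F1 PNO against SAL, F1 IUO against PNO and the same comparisons in F2.

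Peptide processing genes (6) include the convertases Pcsk1 and Pcsk2, the carboxypeptidase Cpe and the amidating enzyme Pam. Cpe was the most abundant, at 457.45 to 770.51 FPKM, and Pcsk1 the least, at 0.93 to 3.02 FPKM. In all, 0 of 6 were called by the fold rule in each of the 6 comparisons, with list medians between -0.10 and 0.16. Partners of the MCH receptor and genes of its cilium (8, among them Rgs8, Ncdn and Adcy3) gave 0 of 8 in each comparison, with list medians between -0.11 and 0.10. Ncdn, which encodes neurochondrin, was the most abundant of them, at 245.38 to 426.64 FPKM.

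Receptor G proteins and effectors (16) had Gnao1, at 85.74 to 272.47 FPKM, as the most abundant gene in 22 libraries and Gnai2 in 2. Of the 16, 1 passed the fold rule, Plcb2, a phospholipase C, in F1 IUO against PNO. Plcb2 FPKM was 0.99, 0.89, 0.64 and 0.95 in F1 IUO and 0.4, 0.25, 0.37 and 0.36 in F1 PNO, so the groups did not overlap, and IUO was higher by 1.12 on the log2 scale (standard error 0.288, adjusted p = 0.135). In the other 5 comparisons 0 of 16 were called, and the list medians over all 6 lay between -0.22 and 0.24.

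The genes whose level was ordered most like that of each of the 5 genes were found by Spearman's rho over the 24 libraries, among 14709 genes with at least 1 FPKM in 4 or more libraries. The highest of so many values are high by selection. No chance level was computed for them, so they are a description only. For Pmch these were Ret (0.742), Ciapin1 (0.734), Ubl3 (0.710), Rnf144b (0.709) and Zfp488 (0.702). For Hcrt they were Pgr (0.743), Fnta (0.717), Sdr42e1 (0.717), Kif1bp (0.690) and Plcd1 (0.688). Mchr1 was most like Dnajb3 (0.803), Cdk10 (0.791), LOC691995 (0.776), Nnat (0.762) and Slx1b (0.755). Those of Hcrtr1 were Gal (0.762), Zfp575 (0.739), Caskin1 (0.728), Smap2 (0.725) and Pafah1b3 (0.724), and those of Hcrtr2 were Hcn4 (0.726), Fam19a4 (0.713), Lypd6b (0.710), Eps8 (0.709) and RF00493 (0.687). None of these genes appears for more than 1 of the 5, and libraries of a group share their exposure. Pmch and Hcrt were among the genes searched, and their rho of 0.688 with each other placed neither among the 5 of the other. Pearson's r with Pmch was 0.627 to 0.723 for the 5 genes named for it, below the 0.788 of Hcrt.

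Hcrt is shown with its promoter, as the only peptide gene here with a promoter entry. No relation of the promoter to the level of Hcrt was tested. Of the 5 genes, 3 matched an entry in RefSeq promoters of the rat build GRCr8. The 250 bases before the Hcrt start, chr10:86191525-86191774 on the minus strand, are given 5′ to 3′, with capitals for the motifs found.
Hcrt: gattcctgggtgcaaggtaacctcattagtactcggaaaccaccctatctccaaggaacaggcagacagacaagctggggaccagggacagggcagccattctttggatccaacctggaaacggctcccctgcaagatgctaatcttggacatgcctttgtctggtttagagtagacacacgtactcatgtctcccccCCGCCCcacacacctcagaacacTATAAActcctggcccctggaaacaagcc
The motifs searched on both strands were the TATA box TATAAA, the cAMP response element TGACGTCA, the E-box CACGTG, the GC box sequence GGGCGG and the CCAAT box, present in 12.9%, 1.59%, 5.59%, 30.5% and 34.0% of 33469 promoters of this length. The Hcrt window holds TATAAA at position -29 from the start and GGGCGG, as its reverse complement CCGCCC, at -52. Of the receptors, the Hcrtr2 window holds CCAAT, as ATTGG, at -24, and the Hcrtr1 window holds none of the 5. GC content was 53.6% for Hcrt, 55.6% for Hcrtr1 and 55.2% for Hcrtr2, against a median of 51.2% over all promoters.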

How the data were processed

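NAc RNA of 24 P14 pups was sequenced, 4 in each of 6 groups. The authors deposited FPKM values per gene and library, and their processing notes name HISAT2, StringTie, SAMtools and edgeR. The genome build is not given in the sources used here. Read numbers are unknown, so precision rests on the spread between pups. The authors tested pairs of groups with edgeR, which needs counts. On FPKM, limma 3.58.1 in R 4.3.3 (lmFit, eBayes with a trend) was used for the same pairs on log2(FPKM + 0.1), a scale that understates the change of low genes. Genes had to reach 0.1 FPKM in 4 libraries of a comparison, and p-values were adjusted by the Benjamini-Hochberg method over all genes tested. Interactions of exposure and generation used the 16 libraries of each. Tests were two-sided. Single genes and ratios were also tested by exact permutation over 70 assignments, and relations over libraries by 100000 permutations. Python 3.11.15, pandas 2.3.3, numpy 2.4.6, scipy 1.17.1 and matplotlib 3.10.9 were used. The fitting procedure was tested on simulated data with normally distributed log2 values. These do not represent genes split between high and low libraries of a group, as Pmch and Hcrt were in IUO.

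The genes named are the 5 genes, the genes of lists of companions, peptide processing, receptor G proteins and effectors, partners of the MCH receptor and its cilium, and markers of striatum, hypothalamus, thalamus, cortex, choroid plexus and blood, and the 5 genes of highest Spearman's rho with each. Members and lists were chosen with earlier results of these data known. Lists were described by counts and medians and not tested.

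Alternatives were a pseudocount of 1, all genes above 0 in any library, a filter at 1 FPKM in 4 libraries, rescaling to a common upper quartile, 1 fit of all 24 libraries, a replicate block, leaving out each library, and relations within a generation, centred, or without the farthest libraries. Chosen after seeing the data were relations without F2 PNO replicate 4 and 30 relations with all marker lists. A further alternative chosen after seeing the data, and results of list genes, that need items withheld for evaluation are not reported here. List genes were not followed through the alternatives. Other measurements of the study (RT-PCR, behaviour, body size) were not used here.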

Additional observations from a re-analysis of the deposited data

Results flagged for a closer look

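In 13 of 78 groups of 4 libraries, the highest or lowest library lay far from the others, by a gap of more than the 95% limit of Dixon's test as a share of the group's range. For normally distributed values chance gives about 1 in 20 groups, or 3.9 here. FPKM and sums of FPKM are skewed, so that count is not a chance level for them.

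Pmch was at 16.12 FPKM in F2 PNO replicate 3 and between 0.59 and 2.5 in the other F2 PNO libraries, a gap of 0.877 of the range. The log2 ratio of Pmch to Hcrt was 0.78 in F1 SAL replicate 2 and between -2.36 and -1.99 in the other F1 SAL libraries, a gap of 0.882. The hypothalamus sum was 74.15 FPKM in F1 SAL replicate 3 against 17.97 to 25.95, a gap of 0.858. In F2 PNO replicate 4 it was 840.13 FPKM against 15.18 to 136.3, a gap of 0.853.

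Each group held 1 library with a far higher choroid plexus sum than the others. The sum was 5204.3 FPKM in F1 SAL replicate 1 (gap 0.999), 3814.31 in F1 PNO replicate 3 (0.936), 8159.36 in F1 IUO replicate 3 (0.879), 84.21 in F2 SAL replicate 3 (0.866), 6812.45 in F2 PNO replicate 4 (0.998) and 12257.1 in F2 IUO replicate 1 (0.999). The blood sum was 88.52 FPKM in F1 SAL replicate 4 (gap 0.918), 470.96 in F1 PNO replicate 3 (0.980) and 195.1 in F2 PNO replicate 2 (0.898).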

How the results depend on the processing

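Of the log2 fold changes of the 5 genes in the 6 comparisons, 206 of 240 values with 1 library left out and 159 of 169 under other alternatives kept their direction and their side of the fold rule. The differences between generations kept their direction and their side of an unadjusted p of 0.05 in 214 of 240 and 29 of 30. The ratios kept direction and side of an adjusted p of 0.05 in 87 of 96 and 9 of 12. So did the relations in 62 of 75 settings and, without F2 PNO replicate 4, the only library left out singly and chosen after seeing the data, in 13 of 15. Under the filter at 1 FPKM, a gene that did not reach it has no value. With 4 pups per group and an unknown number of reads, precision is set by the spread between pups.

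With a pseudocount of 1, Pmch in F1 PNO against SAL was at 0.016 on the log2 scale. In F2 it was at 1.40 between PNO and SAL and at 0.33 between IUO and PNO, and Hcrt was at 1.58 between IUO and SAL. Hcrtr2 was at -0.49 for F1 IUO against PNO, with its call kept, and at -0.36 for F1 IUO against SAL. The log2 ratio of Pmch to Hcrt was then -0.082, 0.078 and -0.16 for F1 IUO against SAL, F1 PNO against SAL and F1 IUO against PNO. With upper-quartile rescaling, Hcrtr2 was at -0.95 for F1 IUO against SAL, Mchr1 at -0.024 for F1 IUO against PNO, and, in F2 IUO against PNO, Mchr1 at -0.10 and Hcrtr1 at 0.90. That rescaling moved the median of all genes by -0.12, -0.12 and -0.16 in these comparisons in turn. The share of lower genes among those passing the fold rule went from 50.8% to 67.2% in F1 IUO against PNO, from 59.8% to 46.0% in F2 PNO against SAL and from 67.2% to 83.0% in F2 IUO against PNO. With all 24 libraries in 1 fit, Pmch was at 2.52 between F2 PNO and F2 SAL, short of the call. The cause of these changes was not tested.

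Same-numbered libraries did not deviate together: the correlations of their deviations ran from -0.294 to 0.170, no comparison had all 4 pairs over 0.1, and 1, 1, 5, 3, 1 and 2 of 8 libraries correlated best with their own number. With a replicate block, Hcrt in F2 IUO against SAL was at 1.87 and the generation difference of Pmch for PNO against SAL at 2.72, both now with an unadjusted p under 0.05. The block changed no other call of the 5 genes, and the adjusted count of F1 IUO against PNO was 2 genes with it.

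The count passing the fold rule was 465 genes with no filter in F1 IUO against SAL, 569 in F2 IUO against SAL and 521 in F2 IUO against PNO, where the filter gave 279, 373 and 308. With the filter at 1 FPKM it was 83, 112 and 237 in F1 for IUO against SAL, PNO against SAL and IUO against PNO, and 136, 151 and 119 in F2, since fewer low genes were tested. Limma's count at an adjusted p under 0.05 for F1 IUO against PNO, 23 genes, was 28 with the filter at 1 FPKM, 7 with a pseudocount of 1, 5 with no filter, 3 with rescaling and 4 in 1 fit of all libraries. For F2 PNO against SAL it was 1 gene, and 5 with a pseudocount of 1, 2 with no filter, 0 with the filter at 1 FPKM (1656 unadjusted) and 6 in 1 fit. A single fit also gave 1 gene between F1 PNO and F1 SAL and 3 between F2 IUO and F2 PNO.

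With 1 library left out, the log2 fold change in F1 IUO against SAL ran from 2.72 to 5.09 for Pmch, -1.09 to -0.60 for Hcrtr2 and -0.44 to 0.17 for Hcrtr1. For F1 PNO against SAL the range was -0.59 to 0.42 for Pmch, -0.64 to 0.29 for Hcrt and -1.04 to -0.34 for Hcrtr1, and for F1 IUO against PNO 2.92 to 5.28 for Pmch. In F2 IUO against SAL, Pmch ran from 1.01 to 3.72 and Hcrt from 1.32 to 2.95, and in F2 PNO against SAL Pmch from 1.62 to 3.14. For F2 IUO against PNO, the range was -1.51 to 1.20 for Pmch, 0.77 to 2.40 for Hcrt, -0.024 to 0.15 for Mchr1, 0.88 to 1.16 for Hcrtr1 and -0.39 to 0.19 for Hcrtr2. Adjusted counts of genes ran from 0 to 2, 0 to 1 and 2 to 6 in F1, in the order of comparisons above, and from 0 to 2, 0 to 4 and 0 to 2 in F2. The single gene of F2 PNO against SAL was lost without any 1 of the 4 F2 PNO libraries, and 4 genes passed without F2 SAL replicate 2. The fold rule count of F2 IUO against SAL ran from 258 without F2 SAL replicate 3 to 586 without F2 IUO replicate 3. Counts at an unadjusted limma p under 0.05 ran from 471 to 1041, 1558 to 3016 and 1805 to 3296 in F1. In F2 they ran from 831 to 1825, 1231 to 2742 and 709 to 1446. Unadjusted counts of the generation difference were 1299 (PNO and SAL pair) and 2238 (IUO and PNO pair) without F2 PNO replicate 1.

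The generation difference, again with 1 library left out, ran for IUO against SAL from -2.83 to 0.18 for Pmch and -0.041 to 0.14 for Mchr1. For PNO against SAL it ran from 1.82 to 3.33 for Pmch, -0.017 to 0.18 for Mchr1 and -0.39 to 0.31 for Hcrtr1. For IUO against PNO it ran from -5.55 to -2.54 for Pmch, -3.24 to -0.99 for Hcrt, -0.12 to 0.052 for Mchr1 and 0.72 to 1.30 for Hcrtr2. With a pseudocount of 1 and no library left out, the difference for IUO against PNO was -2.22 for Pmch and 0.45 for Hcrtr2. The log2 difference in the ratio of Hcrtr1 to Hcrtr2 ran from -0.68 to 0.046 in F2 PNO against SAL and from 1.30 to 2.0 between F1 IUO and F1 PNO, where a pseudocount of 1 gave 0.87. That of Pmch to Hcrt ran from -0.066 to 0.98, -0.45 to 0.64 and -0.078 to 0.72 in the F1 comparisons and from -0.62 to 1.29 in F2 IUO against SAL, and from 0.96 to 2.56 between F2 PNO and F2 SAL, where a pseudocount of 1 gave 1.04.

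Pmch with Hcrt within F2 gave r = 0.644, with an adjusted permutation p over 0.05. Other relations changed sign, none of them past the threshold. Pmch with Hcrtr2 was at 0.314 centred on group means and 0.191 without the 2 farthest libraries. Within F1 and centred, Hcrt was at 0.112 and 0.0892 with Mchr1, and at -0.0487 and -0.190 with Hcrtr1. Hcrt with Hcrtr2 was at 0.0778 centred. Mchr1 with Hcrtr2 was at -0.192 within F1 and -0.0470 without F2 PNO replicate 4, which was left out after seeing the data. Hcrt with the hypothalamus sum was at 0.646 within F1, -0.187 within F2, -0.0535 centred and 0.336 without F2 PNO replicate 4. Mchr1 with that sum was at 0.249 within F1, 0.00325 without the 2 farthest libraries and 0.153 without F2 PNO replicate 4, the last chosen after seeing the data. The cause of these changes was not tested.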
